A study of Mus musculus with 4 samples.

Results

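Nanog, Utf1, Fgf4, Sall4 and Lin28a (NCBI genes 71950, 22286, 14175, 99377 and 83557) are endogenous genes of the pluripotency network that lie outside the usual set of reprogramming factors. Their methylation was read at the CpGs inside 5 windows of the mouse genome build mm9, from 20 to 35 kb wide. The windows were chr6:122650000-122670000 for Nanog, chr7:147120000-147140000 for Utf1, chr7:152035000-152060000 for Fgf4, chr2:168565000-168600000 for Sall4 and chr4:133550000-133580000 for Lin28a. A CpG was included when at least 10 reads covered it in all 4 libraries, which gave 355 of the 1045368 CpGs that met this minimum genome-wide. Sall4 contributed 175 CpGs, Utf1 76, Fgf4 61, Lin28a 39 and Nanog 4.

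The libraries were made by reduced representation bisulfite sequencing (RRBS), in which genomic DNA is cut with MspI at CCGG, short fragments are selected and bisulfite converts unmethylated cytosines. All 4 came from secondary inducible mouse embryonic fibroblasts (MEFs) of a 129/SvJ x C57/B6 hybrid background, so the control cells carried the inducible factors too. The control library was from uninduced MEFs. The others were from MEFs kept for 96 h with doxycycline (2 ug/ul) that had passed through 0, 1 or >3 divisions on average, and are called the 0-division, 1-division and >3-division libraries. Media are named in the labels with 10%, 15% and 0.5% serum, the last for starvation, but not the cohort that was starved. The labels do not name the promoter that drives the factors, the number of clones or animals, or the age. No RNA was measured, so the cell type was not checked against marker genes. Each group had 1 library, so there was no spread between replicates, and every test below compares 2 libraries and not the conditions.

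In mammalian cells DNA methylation sits mostly on CpGs. Promoters rich in CpGs usually stay unmethylated in somatic cells even when the gene is silent, whereas CpG-poor promoters and enhancers of germline and pluripotency genes are often methylated there. Nanog is a homeodomain transcription factor of the naive pluripotent state and Sall4 a zinc-finger transcription factor of the same network. Utf1 is a chromatin-associated factor of undifferentiated cells and Fgf4 a secreted ligand that they produce. Lin28a is an RNA-binding protein that blocks the maturation of let-7 microRNAs.

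Of the 5 genes, 4 had a promoter sequence in the RefSeq table used (GRCm38.p6), and Sall4 had none. Since that build differs from mm9, a promoter was tied to the deposited positions only where the spacing of its CpGs fitted theirs, with at least 5 listed CpGs on the pattern and none off it. This placed the promoter of Fgf4 and, within the windows, those of 3 other genes: Gm14261, a long non-coding RNA gene that overlaps an end of Sall4 in RefSeq, Gm16201, a long non-coding RNA gene next to Utf1, and Atp9a, a phospholipid-transporting ATPase gene at the low end of the Sall4 window. The promoters of Nanog, Utf1 and Lin28a were not placed. Each Nanog entry held 4 CpGs in its 300 bases, under the minimum of 5, so it could not be placed at any position. For the other CpGs no exon, intron or UTR was assigned.

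The 250 bases before the start are shown for Nanog and for the 4 placed genes on which later values rest, each 5′ to 3′ on the gene's own strand. Nanog, Fgf4, Gm14261 and Gm16201 are on the plus strand and Atp9a on the minus strand. In the 4 placed sequences the capitals mark the CpGs that were measured here. In the Nanog sequence, which had too few CpGs to be matched, they mark every CpG.
Nanog: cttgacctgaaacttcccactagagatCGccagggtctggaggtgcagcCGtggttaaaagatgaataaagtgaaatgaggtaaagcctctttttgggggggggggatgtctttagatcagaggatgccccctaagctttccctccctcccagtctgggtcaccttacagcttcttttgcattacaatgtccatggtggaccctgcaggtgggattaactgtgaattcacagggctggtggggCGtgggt
Fgf4: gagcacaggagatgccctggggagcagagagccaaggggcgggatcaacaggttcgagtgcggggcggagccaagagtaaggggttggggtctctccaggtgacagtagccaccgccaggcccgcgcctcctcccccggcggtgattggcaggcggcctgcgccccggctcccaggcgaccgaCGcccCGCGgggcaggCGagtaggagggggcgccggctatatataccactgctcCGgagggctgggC
Gm14261: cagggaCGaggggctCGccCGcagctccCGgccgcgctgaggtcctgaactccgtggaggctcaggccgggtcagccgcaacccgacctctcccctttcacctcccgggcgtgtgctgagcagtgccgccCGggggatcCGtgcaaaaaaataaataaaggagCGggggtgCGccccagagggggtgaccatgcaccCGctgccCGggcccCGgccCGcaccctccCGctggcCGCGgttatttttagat
Gm16201: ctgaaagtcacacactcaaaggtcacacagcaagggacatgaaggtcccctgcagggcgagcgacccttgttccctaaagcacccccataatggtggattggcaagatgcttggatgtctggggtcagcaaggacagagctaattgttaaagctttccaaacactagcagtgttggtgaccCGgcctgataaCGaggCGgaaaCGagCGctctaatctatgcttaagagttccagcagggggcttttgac
Atp9a: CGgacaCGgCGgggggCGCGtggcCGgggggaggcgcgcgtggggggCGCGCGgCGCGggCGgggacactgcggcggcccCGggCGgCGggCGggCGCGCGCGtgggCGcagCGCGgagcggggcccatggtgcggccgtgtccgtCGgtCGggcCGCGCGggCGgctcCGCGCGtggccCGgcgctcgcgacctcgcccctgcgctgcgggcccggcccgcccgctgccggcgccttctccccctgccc
The MspI motif CCGG, searched on both strands (it reads the same on each), occurred 0 times in the Nanog stretch, 4 times in that of Fgf4, 6 times in that of Gm14261, 5 times in that of Atp9a and 1 time in that of Gm16201. It was also absent from the stretches before the starts of Utf1 and Lin28a. Of 32851 promoters in the table, 47.1% held it in the same 250 bases. The Nanog stretch shown held 3 CpGs, against a median of 6 over all promoters and 21 in that of Fgf4. Another Nanog start in the table had 2 CpGs and 0 CCGG in its 250 bases. The Atp9a stretch shown is that of the start at 168567299. The stretch of its other placed start, 168567635, held 1 CCGG.

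Most of the measured CpGs at the 5 loci were unmethylated in every library. In all, 272 of 355 (76.6%) lay below 10% in all 4 libraries, against 41.5% of all CpGs, and 32 (9.01%) lay at 50% or more in all 4, against 42.3%. The members were also mostly in CpG-rich sequence, apart from those of Nanog and Lin28a. CpG density was the number of listed CpGs up to 100 bp away from a CpG, with itself counted. At least 12 (CpG-dense) was reached by 232 members (65.4%, against 39.3% of all CpGs), and at most 4 (CpG-poor) held for 54 (15.2%, against 30.8%). The CpG-dense members averaged 1.54% in control, 2.64% at 0 divisions, 1.65% at 1 division and 1.83% at >3 divisions. The CpG-poor members averaged 39.6%, 39.9%, 40.4% and 32.5% in the same order. In these dense members 134 came from the Sall4 window, 51 from Fgf4, 38 from Utf1, 9 from Lin28a and 0 from Nanog. The poor ones were 38.5% of the Lin28a members and all 4 of Nanog.

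The mean level of the Sall4 window was 16.5% in control, 17.3% at 0 divisions, 16.6% at 1 division and 13.9% at >3 divisions. With reads pooled it was 25.3%, 30.2%, 27.4% and 10.5%. Without the 77 CpGs at the Atp9a start, the mean with equal weight per CpG was 28.6%, 29.3%, 29.1% and 24.6%. Each of these was lowest at >3 divisions. The mean of the Utf1 window was 12.3%, 14.8%, 12.4% and 11.3%, and that of Lin28a 11.1%, 11.7%, 11.7% and 10.1%. Nanog stood at 9.60%, 8.87%, 4.47% and 6.31%. The Fgf4 window had the lowest mean in each library, at 3.49%, 4.08%, 4.34% and 5.11%. In it the >3-division library had the highest mean of the 4, although with reads pooled the 1-division library did, at 4.28% against 4.06%. In the Utf1, Sall4 and Lin28a windows the >3-division library had the lowest mean, equal weight per CpG or pooled. Pooled levels weight each CpG by its reads, so they also move with depth and are not a second measure of the same change. At the 77 CpGs near the Atp9a start, reads summed over CpGs went from 3866 in control to 6919 at >3 divisions. At 19 highly methylated CpGs of the Sall4 window they went from 1955 to 1146. In control the order was Sall4, Utf1, Lin28a, Nanog and Fgf4, and the intervals of the pooled levels of Nanog (9.56 to 16.9%), Utf1 (11.2 to 12.9%) and Lin28a (8.93 to 11.3%) overlapped there. Over all CpGs the means were 42.4%, 42.7%, 42.5% and 38.8%. These means mix dense unmethylated stretches with isolated methylated CpGs, which the plot of every measured CpG by window shows apart.

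**Figure D1:**
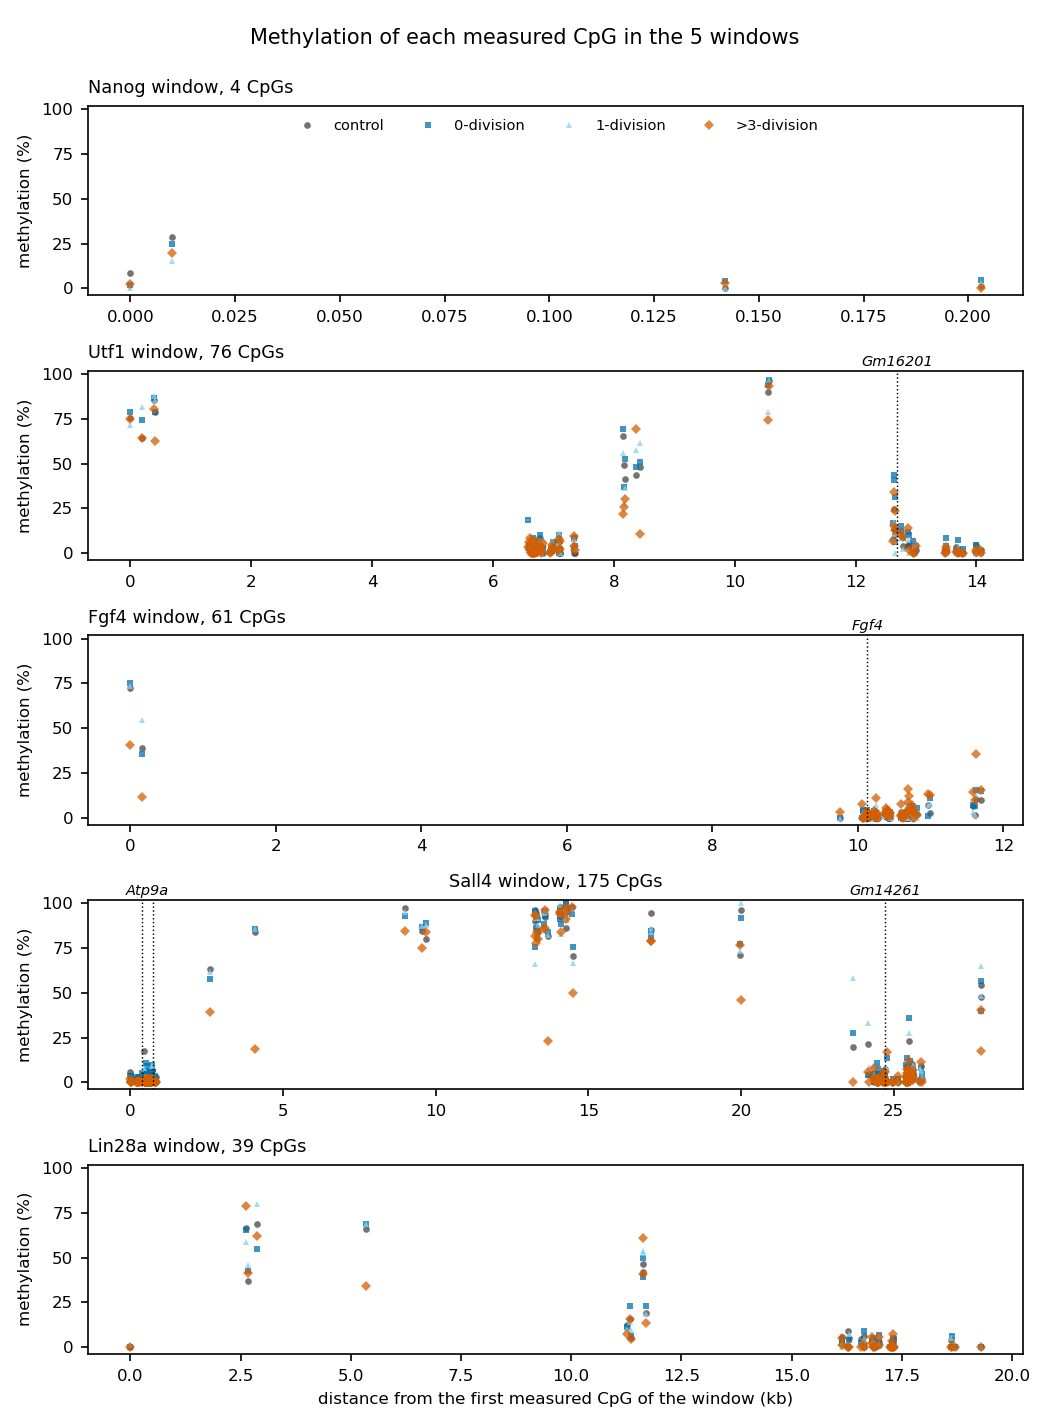
Methylation (%) of each of the 355 CpGs in each library against the distance (kb) from the first measured CpG of its window, with 1 panel per window and a separate distance scale in each. Dotted lines mark placed start sites. Dense stretches lie near 0% in every library, and the separate CpGs where the >3-division points (orange) fall far below the others lie outside them.

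Coverage at the loci was uneven. Of the CpGs listed in any library, 4 of 9 were kept for Nanog, 76 of 130 for Utf1, 61 of 112 for Fgf4, 175 of 352 for Sall4 and 39 of 94 for Lin28a. The >3-division library alone kept 26 CpGs out, 13 of them in the Sall4 window and 0 at Nanog. Read counts summed over CpGs were 84606824 to 94775128 in the 4 libraries, on 1734328 to 1807769 listed CpGs. A read is counted in them at each CpG it covers. Of these counts, 43.5 to 44.6% were methylated in the first 3 libraries against 26.0% at >3 divisions. At the 355 members median depth was 60 reads in control, 60 at 0 divisions, 61 at 1 division and 69 at >3 divisions. RRBS reads carry no molecular identifiers, and CpGs on the same read share it, so p-values are too small and the 95% Wilson intervals given below cover counting error only.

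Changes were called on read counts with a two-sided Fisher's exact test per CpG, adjusted over all 1045368 CpGs. A call needed a difference of 20 percentage points or more together with an adjusted p below 0.05. The same test was run on clusters, runs of at least 3 measured CpGs with gaps of at most 100 bp, with reads summed and a minimum of 10 points. The windows held 31 of the 99566 clusters, 11 in Sall4, 9 in Utf1, 7 in Lin28a, 4 in Fgf4 and 0 in Nanog.

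With no division behind them, the doxycycline-treated cells differed little from control at these loci. In 0-division minus control, 0 of 355 CpGs were called lower and 0 higher by Fisher's exact test (background 0.00631% and 0.00450% of all CpGs), and 14 had an unadjusted p under 0.05, which held for 3.79% of all CpGs. A cluster of 5 CpGs in the Utf1 window was called higher and 0 of 31 lower (background 0.395% and 0.376% of clusters). Of the 31 clusters, 7 had an unadjusted p under 0.05 by Fisher's exact test, which held for 15.5% of all clusters. Some rises had an adjusted p below 0.05 but stayed under the 10-point minimum. They were the 71- and 29-CpG clusters of Sall4 (adjusted p = 0.0312 and 0.00488) and a 4-CpG cluster of Utf1 (adjusted p = 0.0384, Fisher's exact test). Single CpGs leaned upward with none called. Here 185 members were higher and 110 lower, with a median difference of 0.30 points against 0 over all CpGs. The CpG-dense members averaged 1.54% in control and 2.64% at 0 divisions, and all CpG-dense CpGs went from 7.26% to 8.08%. An upward shift at CpG-dense CpGs was thus not particular to these loci.

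After 1 division, 1 CpG of the Sall4 window was called lower and 0 higher (background 0.00153% and 0.00220%). None of 31 clusters was called by Fisher's exact test (background 0.132% lower and 0.215% higher), and 3 had an unadjusted p under 0.05, which held for 10.1% of all clusters. Here 138 members were higher and 119 lower, with a median difference of 0.

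After >3 divisions, 9 CpGs were lower than control and 1 was higher. The lower ones were 4 in the Sall4 window, 2 in Utf1, 2 in Fgf4 and 1 in Lin28a, and the higher one was in Fgf4. As shares of the members these were 2.54% and 0.282%, against a background of 3.05% and 0.0865% of all CpGs. One cluster of 31 was lower and 1 higher (background 11.0% and 0.577%). A CpG can fall by 20 points only from at least 20%, and 54 members stood there in control. The 9 falls were 16.7% of them, against 5.82% of all CpGs with such a control level. The depths of the 2 sets were not matched, and more reads make a call easier. Members with a mean of 50% or more in the 0- and 1-division libraries had median reads of 96 in control and 52 at >3 divisions. Over all CpGs of that class they were 63 and 39. The part of depth in the higher share was not tested. Against the 0-division library, 8 CpGs were lower and 0 higher (background 3.22% and 0.0888%; 37 members and 12.6% of all CpGs had an unadjusted p under 0.05 by Fisher's exact test), and 1 cluster was lower and 0 higher (background 11.2% and 0.614%). Both >3-division comparisons use the same >3-division library, and the first 3 comparisons share the control library, so none is separate evidence.

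The 9 falls from control lay at CpGs with 1 to 5 listed CpGs within 100 bp, themselves included, and the called rise at one with 6. The plot of differences by level shows the falls among the partly and highly methylated CpGs. Members were sorted by their mean level in the 0- and 1-division libraries, which takes no part in >3-division minus control. The 43 members at 50% or more averaged 81.8% in control and 71.1% at >3 divisions, with 32 lower and 10 higher. Their mean difference was -10.8 points and their median -6.25, against -6.32 and -3.94 over all CpGs of that class, where 67.2% were lower. The 289 members below 10% had a mean difference of 0.34 points, 95 lower and 109 higher, against -0.32 over all CpGs of that class. Depth moved with level: the median ratio of >3-division to control reads was 0.780 in the higher class and 1.55 in the lower one, against 0.683 and 1.60 over all CpGs. The part of depth in the falls was not tested.

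**Figure D2:**
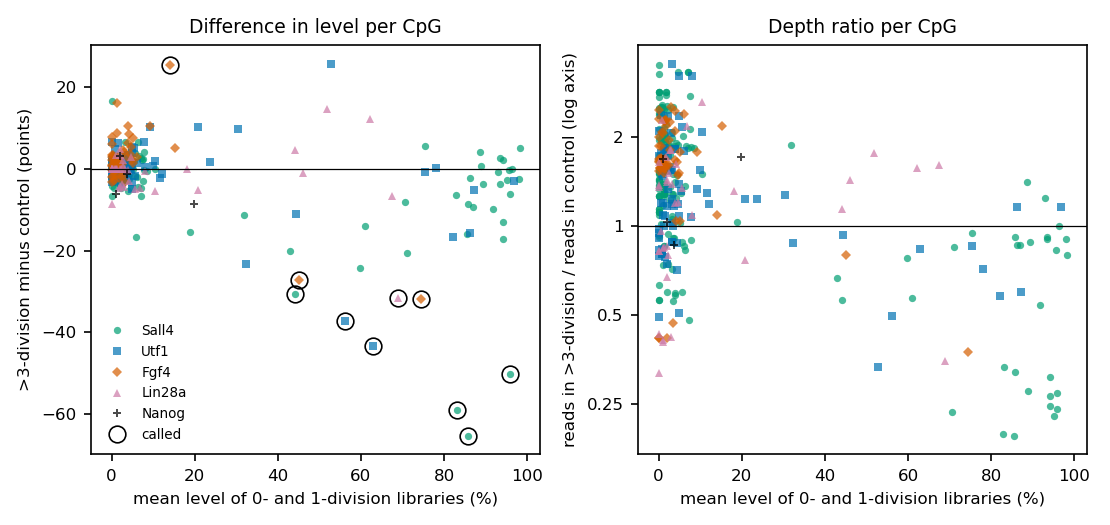
Left, >3-division minus control methylation (percentage points) of each member against its mean level in the 0- and 1-division libraries (%), with called CpGs circled. Right, the ratio of >3-division to control reads on a log axis against the same level. The 9 called falls lie at 40% or more, the called rise lies below 20%, and most CpGs near 0% have more reads at >3 divisions than in control.

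At Nanog the RRBS data reached 4 CpGs within 204 bp, and none was called in any comparison. CpG chr6:122652891 had 31 of 108 methylated reads in control (28.7%, interval 21.0 to 37.9%), 25 of 102 reads at 0 divisions (24.5%), 15 of 99 at 1 division (15.2%) and 37 of 185 at >3 divisions (20%, 14.9 to 26.3%). Its neighbour chr6:122652881 had 9 of 108 (8.33%), 2 of 103 (1.94%), 0 of 99 and 4 of 182 (2.20%). Both were highest in control. For >3-division minus control the Fisher's exact test gave Benjamini-Hochberg adjusted p of 0.684 and 0.248, and the intervals of the first overlap. The differences were larger at 1 division, at -13.55 and -8.33 points, with an unadjusted p of 0.0202 and 0.0035 and an adjusted p of 1 and 0.913 by Fisher's exact test. The pooled level of the 4 CpGs was 12.8% in control (9.56 to 16.9%) and 5.78% at 1 division (3.64 to 9.06%), intervals that do not overlap. Most of these reads come from the 2 neighbours above, whose depths are nearly equal. The same reads can thus count 2 times, the intervals are too narrow, and their not overlapping is no test.

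The other Nanog CpGs were nearly unmethylated. CpG chr6:122653023 had 0 of 32, 1 of 24, 0 of 23 and 1 of 33 methylated reads in the same order, where 0 of 32 allows up to 9.38% and 0 of 23 up to 13.0%. CpG chr6:122653084 had 1 of 73, 2 of 41, 2 of 73 and 0 of 63, the last of which allows up to 4.76%. All 4 were CpG-poor, with 3 or 4 listed CpGs within 100 bp. None could be tied to the promoter sequence shown above, which had too few CpGs to be placed. The methylation of that stretch was not analysed here.

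The Sall4 window combined 2 long unmethylated stretches with highly methylated CpGs between them. The first, 77 CpGs from chr2:168566910 to chr2:168567738, held the placed Atp9a starts at 168567299 and 168567635 and averaged 1.04% in control, 2.01% at 0 divisions, 0.669% at 1 division and 0.398% at >3 divisions. The second, 68 CpGs from chr2:168590571 to chr2:168592833, held the placed start of Gm14261 at 168591642 and averaged 2.95%, 4.49%, 3.97% and 2.43%. Its 17 CpGs on the Gm14261 promoter pattern stood at 1.68%, 2.97%, 1.36% and 2.16%. Both stretches were highest at 0 divisions, as was the mean of all CpG-dense CpGs (8.08% against 7.26% in control). Neither stretch held a cluster past the test's 10-point minimum. A 29-CpG cluster from chr2:168592312 to chr2:168592548 went from 3.98% in control to 7.37% at 0 divisions (adjusted p = 0.00488, Fisher's exact test), and was at 4.58% and 3.52% in the others. The 71-CpG cluster at Atp9a went from 0.958% in control to 0.348% at >3 divisions (adjusted p = 0.00132, Fisher's exact test). Of its 36 methylated control reads 14 came from 1 CpG, chr2:168567368, which had 14 of 81 in control (17.3%), 3 of 77 at 0 divisions (3.90%), 6 of 77 at 1 division (7.79%) and 1 of 163 at >3 divisions (0.613%). That CpG fell by 16.67 points, under the 20-point minimum (adjusted p = 0.000105, Fisher's exact test). Without it, an alternative chosen after seeing the data, the cluster stood at 0.598% in control and 0.341% at >3 divisions (adjusted p = 0.189, Fisher's exact test). Against 0 divisions, where the whole cluster stood at 1.86%, the >3-division level was lower by 1.52 points (adjusted p = 1.98e-12, Fisher's exact test). That difference was also under the 10-point minimum. Without the same CpG the 0-division level was 1.82%.

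Between these stretches, 19 CpGs from chr2:168580151 to chr2:168581398 averaged 91.5% in control, 90.5% at 0 divisions, 90.0% at 1 division and 84.5% at >3 divisions, with 14 lower and 4 higher than control in the last. They stayed mostly methylated in all 4 libraries. Their 6-CpG cluster from chr2:168580151 to chr2:168580264 stood at 91.7%, 88.8%, 87.6% and 83.0%, a difference of -8.77 points between >3 divisions and control (adjusted p = 0.000548, Fisher's exact test) that stayed under the 10-point minimum. Around them, 3 CpGs from chr2:168575916 to chr2:168576575 averaged 87.3%, 89.6%, 90.1% and 81.2% and were not called. Single CpGs of the region departed from this.

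CpG chr2:168570975 had 42 of 50 methylated reads in control (84.0%, 71.5 to 91.7%), 66 of 77 at 0 divisions (85.7%), 60 of 70 at 1 division (85.7%) and 3 of 16 at >3 divisions (18.8%, 6.59 to 43.0%). It fell by 65.25 points against control (adjusted p = 0.000313, Fisher's exact test) and fell by 66.96 against 0 divisions. CpG chr2:168580595, inside the methylated run, had 32 of 39 (82.1%), 26 of 31 (83.9%), 23 of 28 (82.1%) and 3 of 13 (23.1%, 8.18 to 50.3%). The first 3 libraries of both CpGs lay within 2 points of each other and the >3-division library lay far below them. The second fell by 58.97 points against control (adjusted p = 0.00909, Fisher's exact test) and fell by 60.79 against 0 divisions. With each CpG thinned to its lowest coverage, neither was called against control (adjusted p = 0.0540 and 0.359, Fisher's exact test), nor the first against 0 divisions (adjusted p = 0.0519). In an exact test against the odds ratio between the whole libraries, the second was not called against control or 0 divisions (adjusted p = 0.0843 and 0.0780).

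At chr2:168586911 the methylated reads were 52 of 54 in control (96.3%), 22 of 24 (91.7%), 31 of 31 (100%) and 6 of 13 at >3 divisions (46.2%, 23.2 to 70.9%). It fell by 50.14 points against control (adjusted p = 0.00323, Fisher's exact test). The CpG at chr2:168586881, 30 bp away, stood at 71.2%, 77.1%, 73.5% and 76.8% and did not share it. With thinning the adjusted p of the fall was 0.166 and after division of the counts by the excess spread (overdispersion) seen between 1-division and control it was 0.0690, both by Fisher's exact test, so the call ended in each.

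The called fall with the most reads in the window was at chr2:168594758, with 69 of 144 methylated reads in control (47.9%, 39.9 to 56.0%), 78 of 195 (40.0%), 101 of 210 (48.1%) and 14 of 81 at >3 divisions (17.3%, 10.6 to 26.9%). The >3-division interval lay below those of the other libraries. The difference was -30.63 points against control (adjusted p = 0.000312, Fisher's exact test) and -22.72 against 0 divisions (adjusted p = 0.00931). Against the odds ratio of the whole library neither was called (adjusted p = 0.0533 and 0.371, exact conditional test). The difference from 0 divisions was not called by Fisher's exact test with thinning (adjusted p = 0.0709) or the overdispersion (adjusted p = 0.0560) either.

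Other called CpGs of the window moved in a different pattern. At chr2:168580151 the levels were 90.0% in control (126 of 140), 75.5% at 0 divisions (163 of 216), 65.9% at 1 division (110 of 167) and 81.8% at >3 divisions (27 of 33). From control to 1 division it fell by 24.13 points (adjusted p = 0.00764, Fisher's exact test), and was no longer called by Fisher's exact test with thinning (adjusted p = 1) or with the overdispersion (adjusted p = 0.245). At chr2:168592411, on the far side of the Gm14261 start, levels were 23.1% (25 of 108), 36.2% (34 of 94), 27.4% (31 of 113) and 11.8% (24 of 203). From 0 to >3 divisions it fell by 24.35 points (adjusted p = 0.000233, Fisher's exact test), and the difference from control, -11.33 points, was not called. Against the odds ratio of the whole library the first difference was -15.17 points and not called (adjusted p = 0.0533, exact conditional test). The next CpG, chr2:168592421, stood at 2.25%, 9.52%, 5.43% and 4.74%.

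At Utf1 the called falls lay in a stretch of intermediate methylation between the unmethylated runs. CpG chr7:147131637 had 63 of 131 methylated reads in control (48.1%, 39.7 to 56.6%), 55 of 108 at 0 divisions (50.9%), 90 of 147 at 1 division (61.2%) and 7 of 65 at >3 divisions (10.8%, 5.32 to 20.6%). It fell by 37.32 points against control (adjusted p = 1.56e-05, Fisher's exact test) and fell by 40.16 against 0 divisions (adjusted p = 5.85e-06). CpG chr7:147131360 had 32 of 49 (65.3%), 41 of 59 (69.5%), 32 of 57 (56.1%) and 9 of 41 (22.0%, 12 to 36.7%). It fell by 43.35 points (adjusted p = 0.00271, Fisher's exact test) and fell by 47.54 against 0 divisions (adjusted p = 0.000391). Its fall from control was not called in the exact test against the odds ratio of the whole library (adjusted p = 0.0914). In both, the >3-division interval lay below the intervals of the other 3 libraries.

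Not every CpG of the stretch moved the same way. Between those CpGs, chr7:147131570 stood at 43.6% in control, 48.0% at 0 divisions, 57.8% at 1 division and 69.2% (9 of 13 reads) at >3 divisions. This difference of +25.64 points was not called (adjusted p = 0.885, Fisher's exact test). The 3-CpG cluster from chr7:147131360 to chr7:147131393 held 52.1% in control (44.0 to 60.1%), 52.8%, 40.1% and 26.0% (19.1 to 34.2%). It fell by 26.10 points against control (adjusted p = 0.000204, Fisher's exact test) and fell by 26.82 against 0 divisions (adjusted p = 4.74e-05).

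The cluster called at 0 divisions was the one placed 69 to 43 bp before the Gm16201 start at chr7:147135896, and its 5 CpGs are the capitals of the Gm16201 sequence. Its summed reads were methylated to 13.8% in control (9.56 to 19.4%), 27.8% at 0 divisions (21.4 to 35.3%), 8.39% at 1 division (4.87 to 14.1%) and 18.5% at >3 divisions (14.0 to 23.9%). The 0-division level was the highest of the 4, 14.09 points over control (adjusted p = 0.0355, Fisher's exact test). The call ended with thinning (adjusted p = 0.180, Fisher's exact test) and with the overdispersion (adjusted p = 0.404). The longest unmethylated run in the window, a cluster of 27 CpGs from chr7:147129787 to chr7:147130033, stood at 2.38%, 2.50%, 2.47% and 2.76%. Highly methylated CpGs lay on both sides of it. The 4 from chr7:147123205 to chr7:147123607 averaged 76.1%, 79.7%, 81.6% and 70.5%, and the 2 at chr7:147133757 and chr7:147133764 averaged 93.1%, 95.3%, 87.9% and 83.9%. None of these 6 was called.

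**Figure D3:**
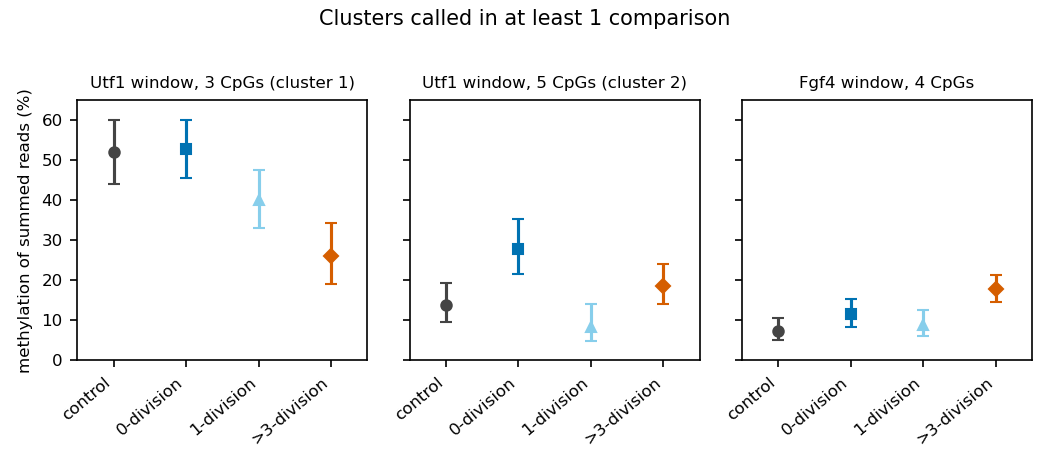
Methylation of summed reads (%) in the 4 libraries for the 3 clusters called in at least 1 comparison, with 95% Wilson intervals as bars (counting error only). The first Utf1 cluster is lowest at >3 divisions, the second, at the Gm16201 start, is highest at 0 divisions, and the Fgf4 cluster is highest at >3 divisions.

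Among the genes that name the windows, Fgf4 alone had its promoter placed, and in the stretch around it 1 CpG and 1 cluster rose at >3 divisions. Whether measured CpGs also lie in the promoters of the other genes was not determined. The placed start is chr7:152047290. Of the 22 listed CpGs on its pattern 10 were measured, 67 bp before to 21 bp after the start, with means of 0.989% in control, 2.36% at 0 divisions, 0.811% at 1 division and 1.93% at >3 divisions. These 10 CpGs were thus nearly unmethylated in every library, control included. The other listed CpGs of the pattern, between 211 bp before and 42 bp after the start, lacked the required coverage.

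Over the whole stretch of 59 CpGs, from chr7:152046915 to chr7:152048851, 42 CpGs were higher and 13 lower at >3 divisions than in control. In the class below 10% the Fgf4 window had 40 higher and 13 lower of 57 CpGs with a mean difference of +2.24 points. The same class over all CpGs had 23.8% higher and 30.7% lower with a mean difference of -0.32. These shares are a description of neighbouring CpGs that share reads, and the difference between Fgf4 and other loci was not tested.

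The rise that passed the test lay downstream of the start. CpG chr7:152048780, 1490 bp after it, had 8 of 77 methylated reads in control (10.4%, 5.36 to 19.2%), 11 of 72 at 0 divisions (15.3%), 8 of 63 at 1 division (12.7%) and 30 of 84 at >3 divisions (35.7%, 26.3 to 46.4%). It rose by 25.32 points (adjusted p = 0.00752, Fisher's exact test). The 4-CpG cluster around it, 1459 to 1561 bp after the start, stood at 7.37% (5.04 to 10.7%), 11.4%, 8.77% and 17.7% (14.6 to 21.4%), a rise of 10.33 points (adjusted p = 0.000252, Fisher's exact test). With thinning the CpG rose by 17.5 points (adjusted p = 0.494) and the cluster by 9.82 points (adjusted p = 0.00743) by Fisher's exact test, and neither was called. With the overdispersion the CpG was not called either (adjusted p = 0.0530, Fisher's exact test). Against the 0-division library neither was called by Fisher's exact test, although the CpG was called higher against the odds ratio of the whole library (adjusted p = 0.00495, exact conditional test), and the cluster was higher by 6.29 points (adjusted p = 0.0564, Fisher's exact test).

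The other 3 clusters of Fgf4 were also higher at >3 divisions, all by less than the 10-point minimum. Their levels went from 0.732% to 2.14% (adjusted p = 0.000179), from 1.62% to 2.79% (adjusted p = 0.155) and from 1.23% to 3.37% (adjusted p = 0.00173) by Fisher's exact test. In the first of these, CpG chr7:152047413, 123 bp after the start, stood at 0.649%, 0.851%, 6.98% and 11.2%. Its difference of 10.59 points had an adjusted p of 0.00106 by Fisher's exact test and stayed under the 20-point minimum.

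**Figure D4:**
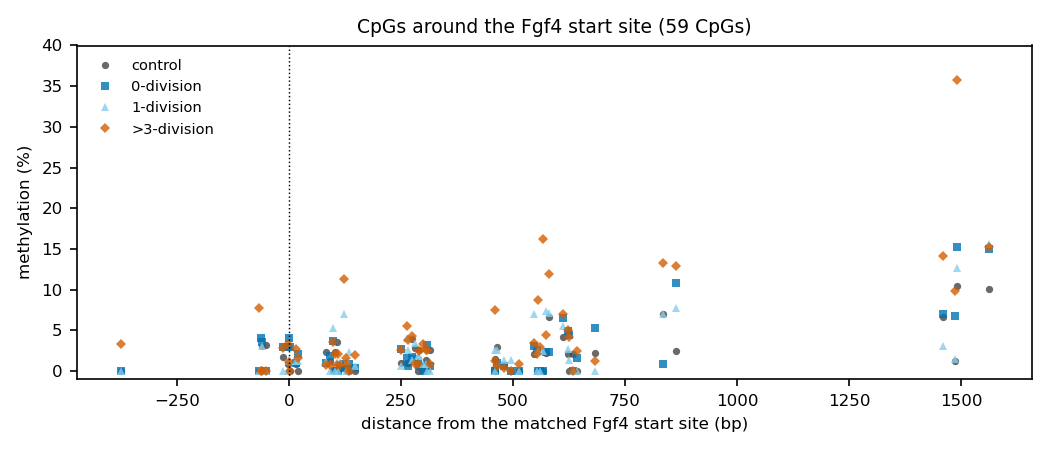
Methylation (%) of the 59 CpGs around the placed Fgf4 start in each library, against distance from the start (bp, dotted line at 0). Levels are near 0% at the start in every library, and the >3-division point at 1490 bp stands at 35.7%, above the other libraries at that CpG.

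Far upstream of Fgf4 the direction was the opposite. CpG chr7:152037163, at -10127 bp from the start, had 81 of 112 methylated reads in control (72.3%, 63.4 to 79.8%), 63 of 84 (75%), 79 of 107 (73.8%) and 17 of 42 at >3 divisions (40.5%, 27.0 to 55.5%). It fell by 31.85 points (adjusted p = 0.0136, Fisher's exact test) and fell by 34.52 against 0 divisions (adjusted p = 0.012). Neither call held with the overdispersion (adjusted p = 0.0896 and 0.0589, Fisher's exact test) or against the odds ratio of the whole library (adjusted p = 0.295 and 0.220). CpG chr7:152037319, at -9971 bp from the start, had 25 of 64 (39.1%), 27 of 76 (35.5%), 43 of 79 (54.4%) and 6 of 51 (11.8%, 5.51 to 23.4%). It fell by 27.30 points (adjusted p = 0.0373, Fisher's exact test), a call lost with thinning (adjusted p = 0.247), the overdispersion (adjusted p = 0.204) and in the exact test against the odds ratio of the whole library (adjusted p = 0.324).

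At Lin28a a single isolated CpG was called. CpG chr4:133562074 had no other listed CpG within 100 bp, and its methylated reads were 66 of 100 in control (66.0%, 56.3 to 74.5%), 132 of 192 at 0 divisions (68.8%), 113 of 164 at 1 division (68.9%) and 12 of 35 at >3 divisions (34.3%, 20.8 to 50.8%). The first 3 libraries lay within 3 points and the >3-division library below them. It fell by 31.71 points against control (adjusted p = 0.0395, Fisher's exact test) and fell by 34.46 against 0 divisions (adjusted p = 0.00802). The fall from control was not called with thinning (adjusted p = 0.711), with the overdispersion (adjusted p = 0.167) or against the odds ratio of the whole library (adjusted p = 0.428, exact conditional test). The fall from 0 divisions was not called with thinning (adjusted p = 0.337, Fisher's exact test) or against that odds ratio (adjusted p = 0.196).

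The CpGs of the Lin28a window next in size of difference, both partly methylated, moved the other way. CpG chr4:133568375 stood at 46.2%, 50%, 53.8% and 60.9%, and chr4:133559352 at 66.7%, 65.5%, 58.6% and 78.8%. The differences from control at >3 divisions were +14.72 and +12.18 points, with an adjusted p of 1 for both by Fisher's exact test. The 24 CpGs from chr4:133572878 to chr4:133574071 formed the unmethylated stretch, at 2.09% in control, 2.71% at 0 divisions, 1.58% at 1 division and 1.37% at >3 divisions. Within it a 3-CpG cluster from chr4:133573310 to chr4:133573394 went from 3.42% in control to 0.578% at >3 divisions (adjusted p = 0.00228, Fisher's exact test), under the 10-point minimum. The 6 CpGs from chr4:133568018 to chr4:133568435 averaged 23.3%, 25.4%, 26.4% and 23.8%, and none was called. At >3 divisions 5 of them were lower than control and 1 was higher.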

How the data were processed

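Methylation was measured by RRBS in 4 libraries, 1 per group, with fragments of 40 to 220 bp per the labels' protocols. The authors deposited, for each library, CpG positions with methylated and unmethylated read counts. The submitters' processing notes name mm9 as the build. The aligner and caller were not given in the sources used here. It is not stated whether counting starts at 0 or 1, so positions are printed as deposited, and distances from a start may be off by 1 bp.

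From these counts, levels in percent were computed at CpGs with at least 10 reads in all 4 libraries. Two-sided Fisher's exact tests were run on the whole table with Benjamini-Hochberg adjustment, for each doxycycline library minus control and for >3-division minus 0-division. The test was checked on simulated data. Python 3.11.15, numpy 2.4.6, scipy 1.17.1, pandas 2.3.3, numba 0.67.0 and matplotlib 3.10.9 were used. Every CpG or cluster called in any comparison was named, and where a window had fewer than 3 called CpGs, those with the largest >3-division difference from control up to 3, with all members described in windows of at most 12. Neighbours of called CpGs, stretches and clusters below the minimum, and CpGs chr7:152047413 and chr2:168567368, were chosen after their values were seen. The members, lists and tests were chosen with earlier results of these data known.

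Promoters are from RefSeq (GRCm38.p6, 250 bases before to 50 after each start) and their coordinates were not converted. A placement also needed at least 2 times as many matching CpGs as the next best position. Alternatives were other coverage and difference minimums, other cluster gaps, thinning, removal of the deepest CpGs, division of counts by the excess spread (overdispersion) seen between 1-division and control (1.31 for CpGs, 1.68 for clusters), and tests against the odds ratio of the whole library. All 4 libraries were used.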

Additional observations from a re-analysis of the deposited data

How the results depend on the processing

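Of the values of named CpGs and clusters under the alternatives, 203 kept their direction and side of the threshold, 39 kept their direction and were no longer called, 1 came to 0 (Lin28a CpG chr4:133559352 with thinning) and 0 reversed. For a single CpG, other minimums, the overdispersion and removal of the deepest CpGs leave the difference unchanged, so its direction could not reverse there. CpGs not called at the main settings, such as those of Nanog, count as kept when still not called. For >3-division minus control the 10 called CpGs became 5 with thinning (1 of them, Sall4 chr2:168580180, not among the 10), 5 with the overdispersion and 4 against the odds ratio of the whole library (3 lower and 1 higher). At a minimum of 20 reads 7 were called. Sall4 chr2:168570975, chr2:168580595 and chr2:168586911, its largest falls, then lacked the reads to be included and have no value in the tally above. At 30 points 8 were called, all lower. The count was 11 at a minimum of 5 reads and 13 at 10 points. For >3-division minus 0-division the 8 falls became 5 calls with thinning and 4 against that odds ratio, where 3 falls were called (Sall4 chr2:168570975, Utf1 chr7:147131360 and chr7:147131637) and Fgf4 chr7:152048780 was called higher. The CpG called in 1-division minus control was lost (0 called) with thinning, at 30 points and with the overdispersion. The cluster called in 0-division minus control was lost (0 called) with thinning, a gap of 200 bp, 20 points and the overdispersion. The 2 clusters of >3-division minus control became 1 with thinning and 1 at 20 points, and the 1 of >3-division minus 0-division became 2 at a minimum of 5 reads and 2 with a gap of 50 bp. Thinning and the overdispersion lower the number of reads tested. The cause of the other moves was not tested.

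Window means moved by more than the counting interval of the pooled level in these cases. With reads pooled, Sall4 was 25.3, 30.2, 27.4 and 10.5% in control, 0-, 1- and >3-division, Utf1 16.1% at 0 and 7.17% at >3 divisions, Fgf4 3.23% and 4.06%, Lin28a 13.8% and 8.08%, and Nanog 9.07% at >3 divisions. At a minimum of 5 reads Utf1 was 13.8, 16.3, 14.2 and 12%, Fgf4 5.63, 5.65, 6.11 and 6.61%, Lin28a 12.8, 13.1, 13.0 and 12.4%, and Sall4 14.7% at >3 divisions. At a minimum of 20 reads Sall4 was 14.7% at >3 divisions, and with thinning Fgf4 was 4.67% there. Without the block at the Atp9a start, an alternative chosen after seeing the data, Sall4 was 28.6, 29.3, 29.1 and 24.6%. No paired analysis was possible because each group had 1 library. At 13 to 16 reads the >3-division intervals of the 3 largest Sall4 falls span over 30 points.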
